A study of Drosophila melanogaster with 9 samples.

Results

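Neurotransmitter receptor genes were followed through the 3 temporal states of intermediate neural progenitors (INPs) of the Drosophila larval brain. The 41 genes encode receptors for acetylcholine, octopamine, dopamine, serotonin, GABA, glutamate and histamine. They were chosen by name, Octbeta3R among them, and make up 41 of the 16364 genes counted. INPs are the transit-amplifying progenitors of type II neuroblast lineages and pass through successive states marked by the transcription factors Dichaete (D), Grainyhead (Grh) and then Eyeless (Ey). All 3 groups came from wild-type wandering larvae that carried erm-GAL4 with UAS-cd8::tdTomato, which labels the membrane of INPs, and each group added a GFP fusion of its own temporal factor. D::GFP was made by knock-in at the D locus, while Grh and Ey were tagged on extra BAC transgenes, so the fusion differs in kind between D+ INPs and the other groups. Eggs were laid at 25°C over 2 nights and then kept at 29°C for 5 days. Sorting kept cells of large size that were bright in both colours, 6000 to 7000 of them from pooled brains per library, and polyadenylated RNA was sequenced in 3 libraries per state.

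Receptors for neurotransmitters fall into ion channels, which open when the transmitter binds, and G protein-coupled receptors, which act through cyclic AMP, calcium and other messengers. In flies, acetylcholine is the main excitatory transmitter of the brain and is read by nicotinic channels and muscarinic receptors, GABA acts through chloride channels and GABA-B receptors, and octopamine is the counterpart of noradrenaline. Most of these receptors are best known from differentiated neurons.

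Each library held between 11266164 (Grh+ replicate 1) and 23184025 (D+ replicate 1) counts on genes. Levels are given as RPM, a gene's counts scaled to 1000000 counts on genes of its library, and levels of different genes are ordered only as RPM per kb of exon, while sums over a list and shares of a family are in RPM or counts. Progenitor markers were present in all 9 libraries, with the transcription factor ase at 528 to 1049 RPM and the cortical protein mira at 999 to 1923 RPM. Of the 7 INP and neuroblast markers, edgeR called insc and erm lower in Grh+ than in D+ INPs (6.23% of all tested genes were called). It called dpn higher and insc and erm lower in Ey+ than in D+ INPs (7.95% of all tested genes). erm, the gene the GAL4 line is named for, averaged 211, 109 and 41.5 RPM in D+, Grh+ and Ey+ INPs. Between Ey+ and Grh+ INPs edgeR called 0 of the 7, 2 had an unadjusted p under 0.05 (8.43% of all tested genes), and DESeq2 called erm lower. Neuron and glia markers were present as well. The 9 neuron markers summed to 231 to 1052 RPM in D+, 436 to 1025 RPM in Grh+ and 719 to 3149 RPM in Ey+ INPs, mostly from elav, and the 8 glia markers to 912 to 1982 RPM over all libraries, mostly from Eaat1 and nrv2. The deposited library names end in one code for the D+ libraries and in another for the Grh+ and Ey+ libraries. What the code stands for is not given in the sources used here, and it cannot be told apart from temporal state in any comparison with D+ INPs. In bulk RNA from sorted cells, fewer cells that express a gene and less of its RNA per cell cannot be told apart. The labels do not say whether replicates came from separate crosses, and p-values measure the spread between these libraries.

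Receptor genes were mostly low in INPs. At least 1 count was found in every library for 35 of the 41 genes, 38 reached a mean of 1 RPM in at least 1 state, and only 4 reached a mean of 10 RPM, namely Octbeta3R, nAChRalpha4, nAChRalpha5 and GABA-B-R2. Per kb of exon, between 5 (Ey+ replicate 2) and 11 (D+ replicate 1) of the 41 genes in a library were above the 90th percentile of 119 olfactory and gustatory receptor genes. That comparison list was chosen after seeing the data. The filter on low counts kept 38 of the 41 genes for tests, leaving out nAChRbeta3, Grd and ort. The nicotinic subunit gene nAChRbeta3 had no count in any library, where 3 counts correspond to 0.129 to 0.266 RPM. All of its exon length lies within Ets21C on the opposite strand, and because reads were counted without regard to strand, reads from this position could not be assigned to either gene. The GABA-gated channel subunit gene Grd had 13, 51 and 13 counts in all D+, Grh+ and Ey+ libraries together. The histamine-gated channel gene ort had 53, 30 and 7 counts, of which most came from D+ replicate 2 at 2.20 RPM and Grh+ replicate 2 at 1.40 RPM.

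**Figure D1:**
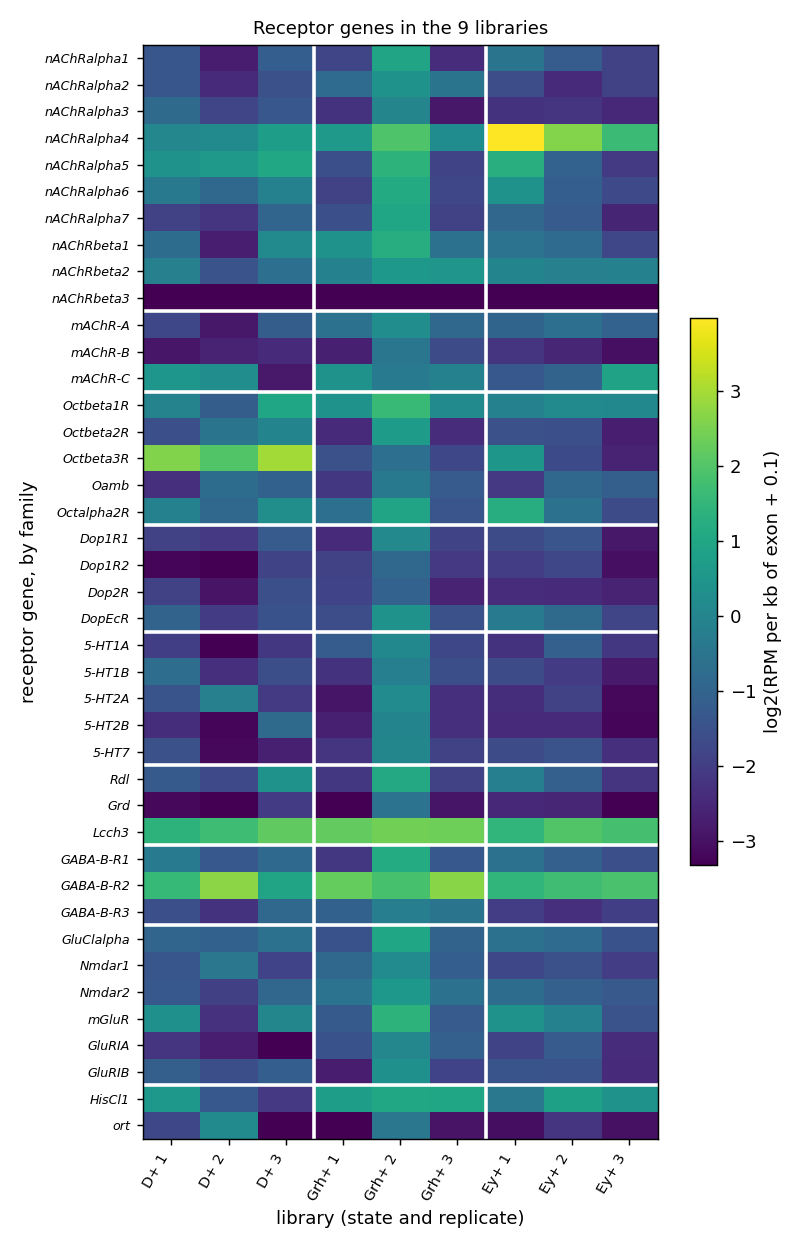
Level of each of the 41 receptor genes (rows, grouped by family with white lines) in each of the 9 libraries (columns), as log2 of RPM per kb of exon plus 0.1. Octbeta3R is bright in the 3 D+ libraries, nAChRalpha4 in the 3 Ey+ libraries, Lcch3 and GABA-B-R2 in all 9, and most rows are brightest in Grh+ replicate 2.

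Most of these genes are long. Their median span was 22.9 kb against 1.89 kb for all genes with a count, 23 of the 41 span more than 20 kb, and their median exon length was 5425 bp against 1542 bp (BDGP6.54 annotation). They lie on chromosome 3R (19 genes), 3L (7), X (6), 2L (5), 2R (3) and 4 (1). Several are neighbours. Octbeta3R and Octbeta2R are 2395 bp apart on 3R, nAChRalpha1, nAChRalpha2 and nAChRbeta2 follow each other with gaps of 28.3 and 18.1 kb, and 5-HT1B and 5-HT1A are 34.5 kb apart.

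In D+ INPs the leading receptor gene per kb of exon was Octbeta3R with 5.80 ± 1.88 RPM per kb (SD, n = 3), followed by GABA-B-R2 with 3.68 ± 2.41 and Lcch3 with 3.38 ± 0.98 RPM per kb. The ranges of these 3 genes overlapped, from 3.87 to 7.62, from 1.80 to 6.39 and from 2.54 to 4.45 RPM per kb. In Grh+ INPs Lcch3 (4.96 ± 0.35 RPM per kb) and GABA-B-R2 (4.80 ± 1.35 RPM per kb) led and overlapped each other, and nAChRalpha4 followed with 2.09 ± 1.46 RPM per kb. In Ey+ INPs the order was nAChRalpha4 (8.23 ± 6.51 RPM per kb), Lcch3 (3.35 ± 0.60) and GABA-B-R2 (3.16 ± 0.44), again with overlapping ranges. The gene with the highest mean thus differed from state to state, whereas Lcch3 and GABA-B-R2 were among the first 3 in each of them.

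Octbeta3R was high in D+ INPs and low in both later states. Octbeta3R (FBgn0250910, 3R:12511570-12548229, minus strand) encodes a beta-adrenergic-like octopamine receptor that raises cyclic AMP. It was at 36.0, 23.6 and 46.5 RPM in the D+ libraries (835, 461 and 939 counts), at 1.51, 3.23 and 1.21 RPM in the Grh+ libraries (17, 67 and 18 counts) and at 8.27, 1.28 and 0.40 RPM in the Ey+ libraries (180, 26 and 7 counts). Every D+ library was above every Grh+ and Ey+ library, and Ey+ replicate 1 was the highest of the later 6.

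Octbeta3R fell from 35.4 ± 11.5 RPM in D+ to 1.98 ± 1.09 RPM in Grh+ INPs (SD, n = 3), a log2 fold change of -4.29 with a standard error of 1.02 (adjusted p = 0.0386, edgeR quasi-likelihood test with Benjamini-Hochberg adjustment over 10193 genes). The call does not hold without D+ replicate 3 (adjusted p = 0.0883) or without Grh+ replicate 1, 2 or 3 (0.156, 0.105 and 0.143), although the fold change stayed between -4.80 and -4.03. Between Ey+ and D+ INPs the log2 fold change was -3.06 with a standard error of 0.96 and missed the threshold (adjusted p = 0.0781, edgeR). Without Ey+ replicate 1 it was -5.33 (adjusted p = 0.00208). The difference between Ey+ and Grh+ INPs, 1.23 with a standard error of 0.95 on the log2 scale, did not pass the test (adjusted p = 0.903, edgeR) and was -1.07 without Ey+ replicate 1.

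Within its own family, Octbeta3R supplied 70.5%, 63.7% and 61.0% of all octopamine receptor counts in the D+ libraries. In the Grh+ libraries the share was 10.2%, 6.18% and 10.1%, and in the Ey+ libraries 22.3%, 7.67% and 3.93%. The exact binomial 95% interval, which covers counting error only, began at 58.5% or above in every D+ library and ended at 25.3% or below in every other library. This share does not depend on the scaling of the libraries. The adjacent gene Octbeta2R, a related receptor, was at 1.81, 4.45 and 6.53 RPM in D+, 0.621, 11.6 and 0.673 RPM in Grh+ and 1.88, 1.82 and 0.401 RPM in Ey+ libraries. Its states overlapped in each comparison.

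**Figure D2:**
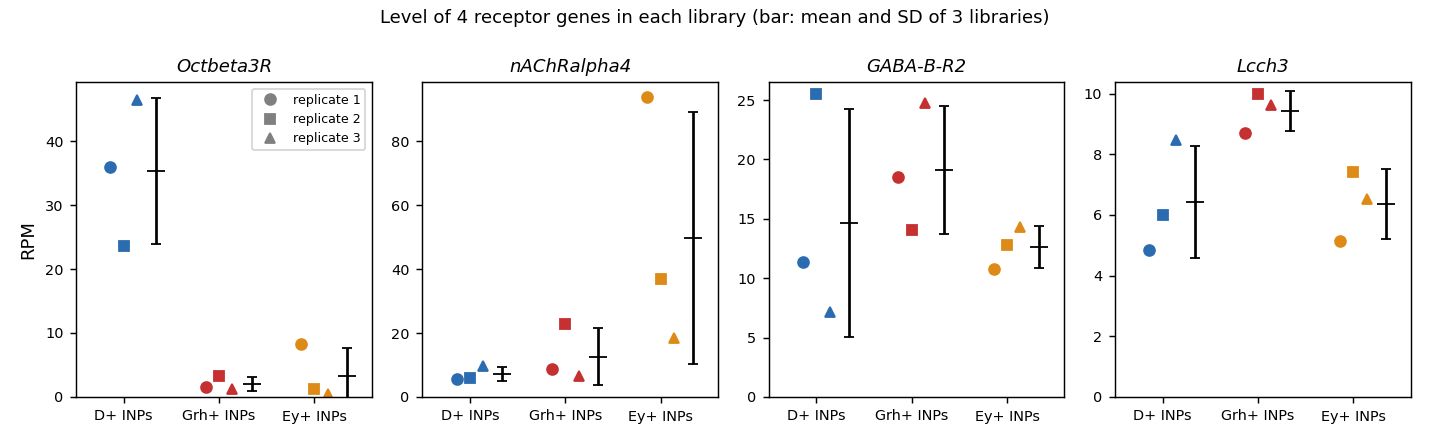
RPM of Octbeta3R, nAChRalpha4, GABA-B-R2 and Lcch3 in each library of D+, Grh+ and Ey+ INPs (symbols for replicates 1 to 3), with the mean and SD of 3 libraries beside them and bars that pass below 0 clipped there. The D+ libraries of Octbeta3R lie between 23.6 and 46.5 RPM above all others, and the Ey+ libraries of nAChRalpha4 spread from 18.5 to 94.0 RPM.

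Among the remaining octopamine receptors, none was called in any comparison. Octbeta1R, another beta-adrenergic-like receptor, averaged 5.57, 9.36 and 5.06 RPM in D+, Grh+ and Ey+ INPs. The alpha2-adrenergic-like Octalpha2R averaged 7.79, 8.63 and 9.87 RPM and was highest in Ey+ replicate 1 at 21.8 RPM, and the alpha1-adrenergic-like Oamb averaged 1.80, 2.08 and 1.72 RPM.

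Nicotinic acetylcholine receptors, the pentameric cation channels for acetylcholine, were led per kb by nAChRalpha4 in Grh+ and Ey+ INPs and by nAChRalpha5 in D+ INPs (1.54 against 1.17 RPM per kb for nAChRalpha4). nAChRalpha4 (FBgn0266347, 3L:23206669-23287448, plus strand) was at 5.65, 5.99 and 9.55 RPM in D+, 8.70, 22.8 and 6.46 RPM in Grh+ and 94.0, 36.8 and 18.5 RPM in Ey+ libraries. The Ey+ libraries were all above the D+ libraries, but the lowest Ey+ library was below Grh+ replicate 2. Within the Ey+ state the spread was wide, with a mean of 49.8 ± 39.4 RPM (SD, n = 3).

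nAChRalpha4 rose from D+ to Ey+ INPs by 3.10 on the log2 scale with a standard error of 0.72 (adjusted p = 0.0337, edgeR). This call does not hold in a fit of the 6 libraries alone (adjusted p = 0.0701), nor without any of the D+ replicates (0.0591, 0.0802 and 0.0740) or without Ey+ replicate 1 (2.00, adjusted p = 0.0954) or 2 (adjusted p = 0.0618). Against Grh+ INPs, Ey+ INPs were higher by 2.41 with a standard error of 0.70 on the log2 scale, which missed the threshold in edgeR (adjusted p = 0.291) and passed it in DESeq2 (2.46, adjusted p = 0.00871). Grh+ and D+ INPs differed by 0.69 on the log2 scale (adjusted p = 0.613, edgeR), and by -0.0037 without Grh+ replicate 2.

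The share of nAChRalpha4 among all nicotinic receptor counts was steadier than its level. It was 66.5%, 67.1% and 64.5% in the Ey+ libraries, 34.8%, 19.3% and 31.9% in the Grh+ libraries and 15.3%, 21.9% and 19.3% in the D+ libraries. The exact binomial 95% intervals of the Ey+ libraries began at 60.1% or above, and those of the other libraries ended at 40.6% or below.

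Neuron markers moved with nAChRalpha4 among the Ey+ libraries. Their sum was 3149, 1275 and 719 RPM in Ey+ replicates 1, 2 and 3, in the same order as nAChRalpha4, against 1052, 231 and 666 RPM in D+ and 515, 1025 and 436 RPM in Grh+ libraries. The order was also the same in the Grh+ libraries, but not in the D+ libraries. Of these, D+ replicate 1 had the highest sum and the lowest nAChRalpha4, at 5.65 RPM. The RNA-binding protein gene elav, the standard neuronal marker, was at 2704, 1144 and 649 RPM in the Ey+ libraries and at 977, 185 and 605 RPM in the D+ libraries. The synaptic vesicle gene cpx was at 76.5, 27.4 and 7.39 RPM in Ey+ against 8.07 to 9.47 RPM in D+ libraries. All 9 neuron markers had a positive fold change in Ey+ versus D+ INPs and none was called by edgeR (7.95% of all tested genes were). An unadjusted p under 0.05 was found for 3 of them (26.5% of all tested genes), and DESeq2 called 1 (fne), against 14% of its genes. In Ey+ versus Grh+ INPs, 5 of the 9 had a positive and 4 a negative fold change, and edgeR and DESeq2 called none (0.235% and 2.78% of their genes). Without Grh+ replicate 2, 9 were positive and 0 negative at that step. Syn alone was at 0 in a library (D+ replicate 2). The part of neuronal RNA in the level of nAChRalpha4 was not tested.

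Of the other nicotinic subunits, nAChRalpha5, nAChRalpha6, nAChRalpha1, nAChRalpha7 and nAChRbeta1 had the same order of Ey+ libraries as nAChRalpha4, and nAChRalpha2, nAChRalpha3 and nAChRbeta2 did not. The median of all 41 receptor genes had this order as well, at 1.88, 1.87 and 0.802 RPM in Ey+ replicates 1, 2 and 3. The share of all tested genes with this order was not counted. None of the other subunits was called by edgeR or DESeq2 or had an unadjusted p under 0.05 in edgeR in any comparison. nAChRalpha5, a subunit of the alpha7-like group, averaged 14.4, 9.19 and 8.92 RPM in D+, Grh+ and Ey+ INPs. It was at 11.6, 13.1 and 18.5 RPM in the D+ libraries, and the Grh+ libraries at 2.31, 23.6 and 1.68 RPM and the Ey+ libraries at 21.8, 3.69 and 1.26 RPM lay on both sides of them. nAChRalpha6, the target of the insecticide spinosad, averaged 5.04, 6.34 and 4.58 RPM. nAChRalpha3 was the second nicotinic gene whose Ey+ and D+ libraries did not overlap, at 1.15, 1.18 and 0.802 RPM against 5.003, 1.995 and 3.069 RPM, and its log2 fold change of -1.51 did not pass the test (adjusted p = 0.349, edgeR). nAChRalpha1, nAChRalpha2, nAChRalpha7, nAChRbeta1 and nAChRbeta2 averaged between 0.383 and 7.65 RPM in each state.

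Muscarinic receptors, which couple acetylcholine to G proteins, were low throughout. The member with the highest level per kb was mAChR-C, a short gene of 1218 bp of exon, at 1.60, 1.33 and 0.0495 RPM in D+, 1.51, 0.868 and 1.01 RPM in Grh+ and 0.368, 0.492 and 2.12 RPM in Ey+ libraries. Its libraries overlapped in each comparison, with log2 fold changes of 0.03 (Grh+ versus D+, standard error 1.08, adjusted p = 0.991), 0.00 (Ey+ versus Grh+, 1.09, adjusted p = 1.00) and 0.04 (Ey+ versus D+, 1.08, adjusted p = 0.986) in edgeR. mAChR-A, which signals through Gq, was at 1.08, 0.205 and 1.88 RPM in D+, 3.02, 5.98 and 2.42 RPM in Grh+ and 2.21, 2.90 and 2.12 RPM in Ey+ libraries. Every Grh+ and Ey+ library of mAChR-A was above every D+ library, and the log2 fold changes of 1.68 and 1.32 over D+ INPs did not pass the test (adjusted p = 0.203 and 0.281, edgeR). mAChR-B averaged 0.292, 1.44 and 0.337 RPM.

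Per kb of exon, GABA-gated channels were represented mainly by Lcch3, an insect subunit of the same channel family as the dieldrin target Rdl. Lcch3 (FBgn0010240, X:15925105-15928529, plus strand) was at 4.83, 5.99 and 8.46 RPM in D+, 8.70, 9.98 and 9.62 RPM in Grh+ and 5.15, 7.43 and 6.53 RPM in Ey+ libraries. In RPM the Grh+ libraries were above all others, by a small margin over D+ replicate 3. The TMM factors, 1.09 in Grh+ replicate 1 and 0.988 in D+ replicate 3, would reverse the order of these libraries. The log2 fold changes were 0.40 (standard error 0.31, adjusted p = 0.489) between Grh+ and D+, -0.29 (0.31, 0.999) between Ey+ and Grh+ and 0.11 (0.31, 0.854) between Ey+ and D+ INPs in edgeR, the smallest standard errors among the 9 members given in full. Part of this gene, 31.3% of its exon length, lies within Ranbp16 and asRNA:CR45000 on the opposite strand, and reads there could not be assigned.

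Lcch3 exceeded Rdl per kb of exon in 9 of 9 libraries, by a median factor of 10.5 and by 2.62 to 35.6 times in single libraries. Rdl was at 2.89, 1.84 and 11.04 RPM in D+, 1.15, 18.0 and 1.48 RPM in Grh+ and 7.12, 3.35 and 1.03 RPM in Ey+ libraries. The smallest factors thus go with the libraries in which Rdl was high. In RPM, without division by exon length, Rdl was above Lcch3 in D+ replicate 3, Grh+ replicate 2 and Ey+ replicate 1.

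Metabotropic GABA receptors are heterodimers, in which GABA-B-R1 binds the ligand and GABA-B-R2 couples to the G protein. GABA-B-R2 (FBgn0027575, 3R:21770333-21775840, minus strand) was at 11.3, 25.5 and 7.18 RPM in D+, 18.6, 14.1 and 24.8 RPM in Grh+ and 10.8, 12.8 and 14.3 RPM in Ey+ libraries. The states overlapped, with log2 fold changes of 0.24 (standard error 0.42, adjusted p = 0.797), -0.33 (0.42, 1.00) and -0.09 (0.42, 0.914) for Grh+ versus D+, Ey+ versus Grh+ and Ey+ versus D+ INPs in edgeR. GABA-B-R2 was above its partner GABA-B-R1 per kb of exon in 9 of 9 libraries, by a median factor of 8.55 and by 1.64 to 37.0 times in single libraries. The third member, GABA-B-R3, was at 2.66, 5.40 and 4.17 RPM in Grh+ and 1.06, 0.689 and 1.09 RPM in Ey+ libraries, without overlap. Its log2 fold change of -1.79 had an unadjusted p under 0.05 but did not pass after adjustment (adjusted p = 0.445, edgeR).

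Of the glutamate receptors, the G protein-coupled receptor mGluR was the highest per kb, at 7.42, 0.665 and 5.79 RPM in D+, 2.04, 16.003 and 2.09 RPM in Grh+ and 7.76, 5.26 and 1.66 RPM in Ey+ libraries. All 3 states overlapped. Its log2 fold changes were 0.37, -0.05 and 0.32 with standard errors of 1.02 for Grh+ versus D+, Ey+ versus Grh+ and Ey+ versus D+ INPs (adjusted p = 0.877, 1.00 and 0.869, edgeR). Nmdar1 and Nmdar2 encode the subunits of the NMDA receptor. Nmdar2 was above Nmdar1 per kb in 8 of 9 libraries (median factor 1.48, and 0.249 in the remaining library) and was at 2.46, 1.28 and 3.46 RPM in D+, 4.70, 11.2 and 4.64 RPM in Grh+ and 3.997, 2.95 and 2.52 RPM in Ey+ libraries. The AMPA-type subunit gene GluRIA had 14, 106 and 46 counts in D+, Grh+ and Ey+ INPs, and its log2 fold change of 3.02 between Grh+ and D+ INPs passed in DESeq2 but not in edgeR (adjusted p = 0.153). GluRIB, also of the AMPA type, averaged 2.28, 3.31 and 1.49 RPM, and the glutamate-gated chloride channel GluClalpha, the target of ivermectin, averaged 3.01, 5.58 and 2.88 RPM.

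HisCl1, a chloride channel gated by histamine, the transmitter of fly photoreceptors, was at 2.59, 0.563 and 0.247 RPM in D+, 3.02, 3.71 and 3.43 RPM in Grh+ and 1.24, 3.10 and 2.29 RPM in Ey+ libraries. The Grh+ libraries were above the D+ libraries, of which replicate 1 came close to them. The log2 fold change was 1.42 with a standard error of 0.79 between Grh+ and D+ INPs (adjusted p = 0.312, edgeR), -0.38 (0.77, 1.00) between Ey+ and Grh+ and 1.04 (0.78, 0.425) between Ey+ and D+ INPs. Without D+ replicate 1 it was 2.90 between Grh+ and D+ (adjusted p = 0.0256) and 2.53 between Ey+ and D+ INPs (adjusted p = 0.0342), so this library decided the call.

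Dopamine and serotonin receptors were the families with the lowest leading members per kb. DopEcR, which responds to dopamine and to ecdysteroids, led the dopamine receptors per kb at 1.73, 0.614 and 1.09 RPM in D+, 0.976, 5.16 and 1.08 RPM in Grh+ and 3.03, 2.02 and 0.802 RPM in Ey+ libraries. Its states overlapped, with log2 fold changes of 0.91, 0.09 and 1.00 and standard errors of 0.86, 0.85 and 0.87 for Grh+ versus D+, Ey+ versus Grh+ and Ey+ versus D+ INPs (adjusted p = 0.591, 1.00 and 0.491, edgeR). The D1-like receptors Dop1R1 and Dop1R2 averaged 2.59 to 6.06 and 0.328 to 1.28 RPM in the 3 states, and the D2-like Dop2R 0.513 to 1.37 RPM.

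5-HT2A led the serotonin receptors per kb by its mean over all 9 libraries and in D+ INPs, whereas 5-HT1A led in Grh+ (0.496 against 0.395 RPM per kb) and Ey+ INPs (0.203 against 0.0923 RPM per kb). 5-HT2A was at 1.47, 4.35 and 0.742 RPM in D+, 0.178, 5.69 and 0.538 RPM in Grh+ and 0.505, 0.935 and 0.0573 RPM in Ey+ libraries. The states overlapped, and its log2 fold changes of -0.18, -1.76 and -1.94 had standard errors of 1.25, 1.32 and 1.32 (adjusted p = 0.956, 0.892 and 0.374, edgeR). 5-HT1A and 5-HT1B, which lower cyclic AMP, 5-HT2B, and 5-HT7, which raises it, averaged between 0.383 and 2.49 RPM in the 3 states.

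**Figure D3:**
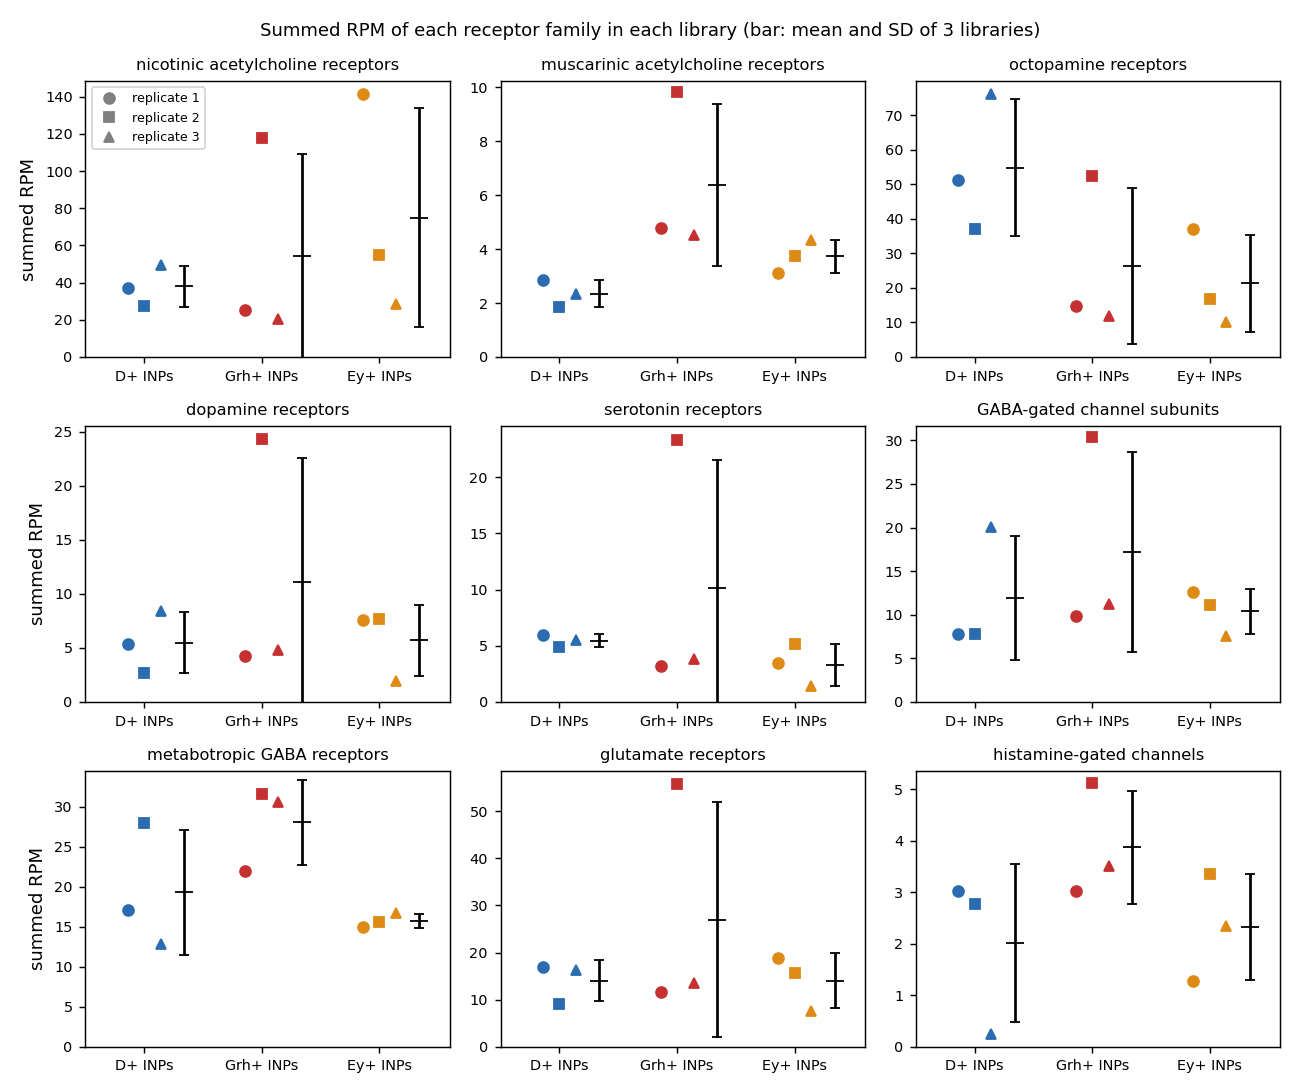
Summed RPM of each of the 9 receptor families in each library, with the mean and SD of 3 libraries, bars that pass below 0 clipped there, and a vertical axis of its own from 0 for each family. Grh+ replicate 2 is the highest Grh+ library in all 9 panels, and the 3 D+ libraries of the octopamine receptors, at 51.1, 37.0 and 76.2 RPM, are above Grh+ replicates 1 and 3 at 14.8 and 11.98 RPM.

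Summed over all 41 genes, receptor RNA made up 147, 121 and 192 RPM of the D+ libraries, 98.5, 350.5 and 104 RPM of the Grh+ libraries and 240.3, 134 and 80.7 RPM of the Ey+ libraries. The total thus overlapped between the states, and a single library stood apart. The 20 channel subunits summed to 61.3 ± 17.4, 95.7 ± 84.4 and 96.8 ± 62.7 RPM in D+, Grh+ and Ey+ INPs and the 21 G protein-coupled receptors to 92.0 ± 18.2, 88.7 ± 59.5 and 54.7 ± 18.9 RPM (SD, n = 3). Octbeta3R and nAChRalpha4 are part of these sums.

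The library that stood apart was Grh+ replicate 2. Of the 40 receptor genes with counts, 34 (85.0%) had their highest RPM there, against 24.3% of all tested genes. In 28 of the 34 it was over 2 times both other Grh+ libraries. The remaining 6 were Octbeta3R, GABA-B-R2 and ort, highest in D+ libraries, and nAChRalpha4, Octalpha2R and mAChR-C, highest in Ey+ libraries. The median receptor gene was at 1.15 RPM per kb in Grh+ replicate 2 and at 0.151 to 0.351 RPM per kb in the other libraries. Over all tested genes D+ replicate 2 held as large a share of the highest values, 25.2%, but it held those of only 2 of the 40 receptor genes. It also detected the fewest genes, 11048.

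Other genes were high or detected in this library as well. It detected 15568 genes, against 11048 to 14330 in the others, and 110 of 119 olfactory and gustatory receptor genes (Or and Gr genes, a list chosen after seeing the data), with a median of 0.778 RPM per kb against 0 to 0.121 elsewhere. Reads on no gene made up 20.5% of reads on genes and on no gene together, against 11.9% to 17.8% elsewhere. Haemocyte markers summed to 21.3 RPM there against 1.07 to 6.76 RPM, with He at 0 in the 3 D+ libraries and srp at 0 in D+ replicate 1 and Grh+ replicate 3. The 9 neuron markers summed to 1025 RPM against 515 and 436 RPM in the other Grh+ libraries. The part of these differences in the receptor values was not tested.

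**Figure D4:**
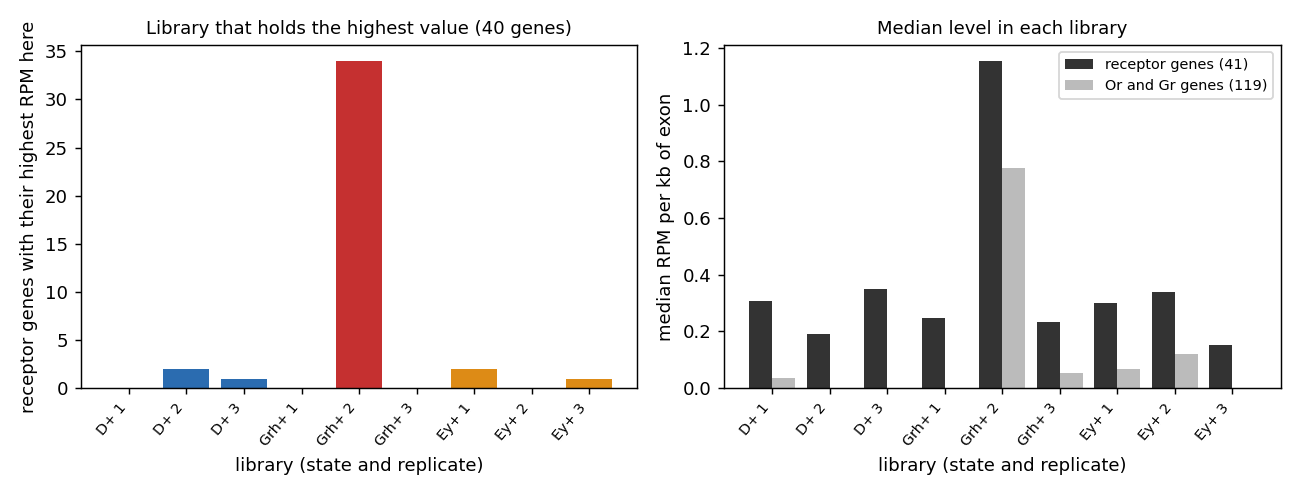
Left, the number of receptor genes whose highest RPM was found in each library, out of 40 genes with counts; right, the median RPM per kb of exon of the 41 receptor genes (dark) and of 119 Or and Gr genes (light) in each library. Grh+ replicate 2 holds 34 of the 40 maxima and has the highest median of both groups, 1.15 and 0.778 RPM per kb.

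Grh+ replicate 2 set the direction of the receptor genes as a group in both comparisons that involve Grh+ INPs. Between Grh+ and D+ INPs, 32 of the 38 tested genes had a positive and 6 a negative fold change, with a median of 0.66 on the log2 scale against 0.00 for all tested genes. Without this library 17 were positive and 21 negative, with a median of -0.28 against -0.05. Between Ey+ and Grh+ INPs, 6 were positive and 32 negative, with a median of -0.70 against -0.03 for all tested genes, and without this library 20 were positive and 18 negative, with a median of 0.33 against -0.04. The comparison of Ey+ with D+ INPs had 19 positive and 19 negative fold changes and a median of 0.02 against -0.02.

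**Figure D5:**
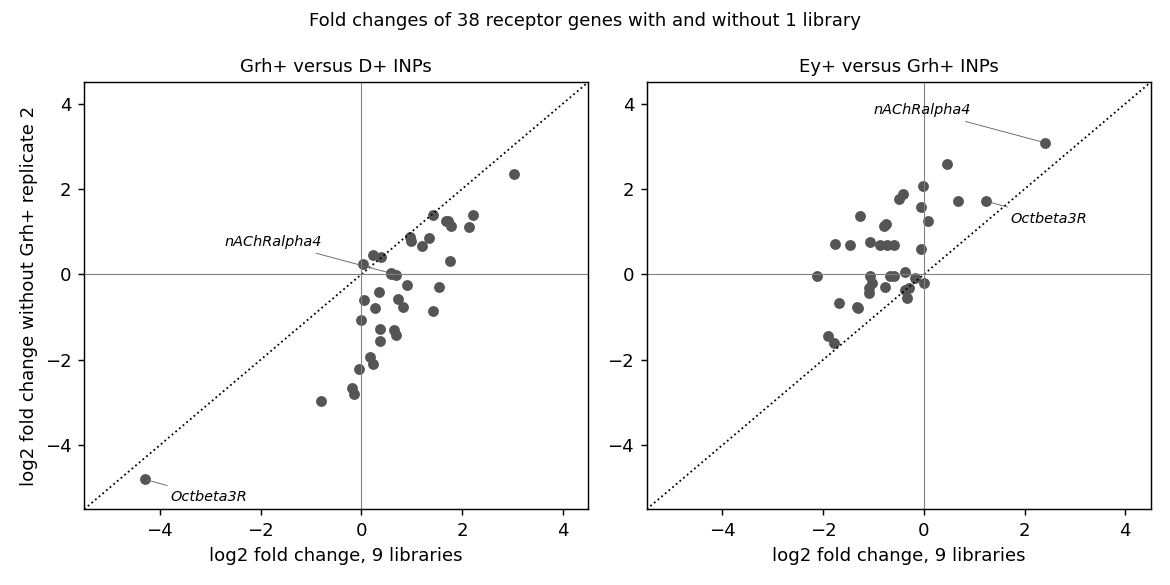
Log2 fold change of each of the 38 tested receptor genes with all 9 libraries (horizontal) and without Grh+ replicate 2 (vertical), for Grh+ versus D+ INPs (left) and Ey+ versus Grh+ INPs (right). Most points lie below the dotted line of equal values on the left and above it on the right, and the medians go from 0.66 to -0.28 and from -0.70 to 0.33.

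Few receptor genes were called at an adjusted p under 0.05. Between Grh+ and D+ INPs, 1 of 38 tested genes was called, Octbeta3R, lower in Grh+ INPs, against 6.23% of all tested genes (3.37% higher and 2.85% lower in Grh+ INPs). Between Ey+ and D+ INPs, 1 was called, nAChRalpha4, higher in Ey+ INPs, against 7.95% of all tested genes (3.42% higher and 4.52% lower in Ey+ INPs). Between Ey+ and Grh+ INPs edgeR called 0, against 0.235% of all tested genes (0.0687% higher and 0.167% lower in Ey+ INPs). At an unadjusted p under 0.05 there were 2, nAChRalpha4 and GABA-B-R3, against 8.43% of all tested genes, and DESeq2 called 1, nAChRalpha4, against 2.78%. DESeq2 called GluRIA and Octbeta3R between Grh+ and D+ INPs, against 10.9% of its genes with an adjusted p, and Octbeta3R and nAChRalpha4 between Ey+ and D+ INPs, against 14%. At an unadjusted p under 0.05 in edgeR there were 4 of 38 between Grh+ and D+ and 2 of 38 between Ey+ and D+ INPs, against 23.8% and 26.5% of all tested genes.

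More genes separated the libraries without passing the test. Between Grh+ and D+ INPs, the 3 Grh+ libraries were all above the 3 D+ libraries for 8 genes, namely nAChRalpha2, nAChRbeta2, mAChR-A, 5-HT1A, Lcch3, Nmdar2, GluRIA and HisCl1, as they were for 21.3% of all tested genes, and below them for 1, Octbeta3R (8.35% of all tested genes). Between Ey+ and Grh+ INPs, 6 genes were lower in all Ey+ libraries, namely nAChRalpha2, Octbeta1R, Lcch3, GABA-B-R3, Nmdar1 and Nmdar2 (21.5% of all tested genes), and 0 higher (1.72%). Between Ey+ and D+ INPs, nAChRalpha4 and mAChR-A were higher (9.88%) and nAChRalpha3 and Octbeta3R lower (14.6%). Both comparisons with Grh+ INPs share the Grh+ libraries. The exact two-sided permutation test gives p = 0.1 for each such gene, the smallest it allows with 3 libraries against 3. TMM factors do not enter RPM and were 1.09 to 1.13 in the Grh+ and 0.740 to 1.03 in the other libraries. Scaled by these factors, nAChRbeta2 and Lcch3 would overlap between Grh+ and D+ INPs. Octbeta1R and Nmdar2 would overlap between Ey+ and Grh+ INPs.

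Genes that act with these receptors were described from 4 lists, fitted in the same model. Of all tested genes, edgeR called 6.23% (Grh+ versus D+), 0.235% (Ey+ versus Grh+) and 7.95% (Ey+ versus D+). At an unadjusted p under 0.05 the shares were 23.8%, 8.43% and 26.5%, and DESeq2 called 10.9%, 2.78% and 14% of its genes. Of 20 genes for transmitter synthesis, packaging, reuptake and breakdown, 5 were called higher and 0 lower in Grh+ than in D+ INPs, against 3.37% and 2.85% of all tested genes. They included Ace, the acetylcholinesterase that breaks down acetylcholine (2.72 on the log2 scale, adjusted p = 0.00786), Gat, the GABA transporter (2.13, adjusted p = 0.00786), and VGlut, which loads glutamate into vesicles (2.69, adjusted p = 0.0479). Trhn, the neuronal tryptophan hydroxylase of serotonin synthesis, was also called (adjusted p = 0.0265) but had 1 count in all D+ libraries together against 50 in the Grh+ libraries, so its fold change is not given. The fifth was Ddc, the dopa decarboxylase of dopamine and serotonin synthesis (3.14, adjusted p = 0.0487). Without Grh+ replicate 2, VGlut (2.42, adjusted p = 0.148, edgeR), Ddc (2.81, 0.154) and Trhn (0.0749) did not pass the test, with fold changes of VGlut and Ddc close to those with it.

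Gat rose again between Grh+ and Ey+ INPs, by 3.10 on the log2 scale (adjusted p = 0.00533), and was at 3.54, 2.30 and 2.82 RPM in D+, 9.94, 18.1 and 14.3 RPM in Grh+ and 109.5, 102 and 79.2 RPM in Ey+ libraries. These states did not overlap at either step. Between Ey+ and D+ INPs, Ace (2.49, adjusted p = 0.00855), Gat (5.24, adjusted p = 9.46e-05) and Trhn were called higher and none of the 20 lower. Of all tested genes, 3.42% were called higher and 4.52% lower there.

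The G proteins, kinases and other transducers that receptors act through summed to 1484 to 4138 RPM over 19 genes. None of the 18 tested was called by edgeR between Grh+ and D+ or between Ey+ and Grh+ INPs. At an unadjusted p under 0.05 there were 2 and 7 of the 18, against 23.8% and 8.43% of all tested genes. DESeq2 called 1 in each, Ggamma1 and Gbeta13F. Between Ey+ and D+ INPs, Gbeta13F (2.27, adjusted p = 0.0400) and Ggamma1 (0.74, adjusted p = 0.0389), a beta and a gamma subunit of heterotrimeric G proteins, rose in edgeR. DESeq2 called 4 higher there, namely Galphao, Gbeta13F, Ggamma1 and Pka-R1. Gbeta13F was at 677, 325 and 199 RPM in Ey+ replicates 1, 2 and 3, in the order of the neuron markers. Neither Gbeta13F nor Ggamma1 passed in edgeR without Grh+ replicate 2 (2.255 and 0.74, adjusted p = 0.0547 and 0.0556). That library is not in this comparison and acts on it only through the shared model.

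Among 14 further transmitter receptor genes, of which 9 were tested, KaiR1D, a kainate-type glutamate receptor, was called between Grh+ and D+ INPs (1.20, adjusted p = 0.0336), and not without Grh+ replicate 2 (1.11, adjusted p = 0.135). The remaining comparisons had 0 calls in edgeR, with 2 genes between Ey+ and Grh+ and 1 between Ey+ and D+ INPs at an unadjusted p under 0.05 and 1 called lower by DESeq2 in each, KaiR1D and the glutamate receptor subunit gene GluRIIE. Of 9 genes for receptor assembly and synaptic scaffolds, hig, a secreted protein of the cleft of cholinergic synapses, fell by 3.33 on the log2 scale between D+ and Grh+ INPs (adjusted p = 0.000552) and by 4.36 between D+ and Ey+ INPs (adjusted p = 9.90e-05). The neuroligin gene Nlg2, a postsynaptic adhesion protein, rose by 2.19 between D+ and Grh+ INPs (adjusted p = 0.0225), and not without Grh+ replicate 2 (1.95, adjusted p = 0.0930). hig was at 314, 309 and 222 RPM in D+, 37.1, 23.0 and 33.2 RPM in Grh+ and 13.4, 10.7 and 12.8 RPM in Ey+ libraries, with no overlap between the states. Between Ey+ and Grh+ INPs edgeR called 0 of these genes, 2 had an unadjusted p under 0.05, and DESeq2 called dlg1 and hig.

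Some glia markers rose between D+ and Grh+ INPs, as did the transmitter genes called there. Of the 8 markers, moody, wrapper and Gli were called higher in Grh+ than in D+ INPs (3.37% of all tested genes). DESeq2 called 5 higher, namely Gli, Gs2, alrm, moody and wrapper, against 10.9% of its genes called in either direction. In RPM, 5 were higher in all Grh+ libraries (21.3% of all tested genes), and none was at 0 in any library. Between Ey+ and Grh+ INPs, 7 of the 8 had a negative fold change and 7 were lower in all Ey+ libraries (21.5% of all tested genes). At that step edgeR called 0 of the 8 and DESeq2 called Gli lower. Between Ey+ and D+ INPs, 6 of the 8 had a positive and 2 a negative fold change. There edgeR called 1 higher (3.42% of all tested genes), and DESeq2 called Gs2, moody and wrapper higher, against 14% of its genes called in either direction. The sum of the 8 markers did not separate Grh+ from D+ INPs, with 912 to 1845 RPM in D+ and 1578 to 1982 RPM in Grh+ libraries, since Eaat1 and nrv2 dominated it. In the Ey+ libraries this sum was 1072 to 1344 RPM, below all Grh+ libraries. Eaat1 and Gs2 stand in both this list and that of transmitter handling. Their part in the values of Gat, Ace and the receptor genes was not tested.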

How the data were processed

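RNA from D+, Grh+ and Ey+ INPs was measured in 9 libraries, 3 per state. The authors deposited whole-number counts per gene, without normalization, from 50 bp single-end reads. They used BWA 0.7.12 to discard ribosomal reads, TopHat2 2.1.1 to align to FlyBase r6.12, molecular tags to mark duplicates, and bedtools 2.26.0 to mask pseudogenes and small RNA genes before counting with HTSeq 0.6.1 without regard to strand. Whether the counts include marked duplicates is not given in the sources used here, so intervals from counts cover counting error only. Reads shared by overlapping genes were set aside. Lines that name no gene held 42.2% of all counts (34.7% to 53.2% per library) and stayed out of library sizes and tests. First-strand cDNA was primed with oligo-dT.

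Symbols matched 16208 of 16364 identifiers and all 41 receptor genes. Positions and exon lengths came from BDGP6.54, an annotation release other than the one the authors counted with. Fold changes and standard errors came from edgeR 4.0.16 (R 4.3.3) quasi-likelihood tests with TMM normalization and the expression filter by group, which kept 10193 genes, with all 9 libraries in 1 model and Benjamini-Hochberg adjustment over all genes tested. The common biological coefficient of variation was 0.477. A gene was called at an adjusted p under 0.05. The smallest p of an exact permutation test was 0.1. The procedure was tested on simulated data.

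The receptor genes and all lists were chosen with earlier results of these data known. Given in full were genes called in at least 1 comparison, Octbeta3R, and the member of each of the 9 families with the highest mean RPM per kb. From the other lists, called genes were named, at most 4 per list by p. Other genes were chosen after their values were seen. Alternatives were DESeq2 1.42.0 and its size factors, library size only, no filter, at least 10 counts in every library, the study's fold and RPM thresholds, the 6 libraries compared, a replicate block, single libraries left out in turn, and RPM with TMM factors in the denominator. Leaving out Grh+ replicate 2 and Ey+ replicate 1 together was added after seeing the data. Whether the replicate numbers pair the libraries was not tested.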

Additional observations from a re-analysis of the deposited data

How the results depend on the processing

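With 1 gene called between Grh+ and D+ INPs, the count was 0 with at least 10 counts in every library and 2 with DESeq2, and 0 to 2 with single libraries left out. At least 10 counts in every library left out Octbeta3R, which had 7 counts in Ey+ replicate 3, so its call was not tested under that filter. With 1 called between Ey+ and D+ INPs, it was 2 with library size only, 2 with DESeq2, 0 with only the 6 libraries compared, and 0 to 1 with single libraries left out. With 0 called between Ey+ and Grh+ INPs, it was 1 with DESeq2 and 0 with each single library left out. Octbeta3R passed in Ey+ versus D+ INPs with library size only (-3.40), DESeq2 (-2.99) and without Grh+ replicate 2 and Ey+ replicate 1 together, here both doubted libraries (-5.34), and nAChRalpha4 did not pass there with the 6 libraries compared (3.07) or without both doubted libraries (1.99). Over single libraries left out, Octbeta3R ranged from -4.80 to -4.03 (Grh+ versus D+) and from -5.33 to -2.52 (Ey+ versus D+), nAChRalpha4 from 2.00 to 3.53 (Ey+ versus D+) and from 1.30 to 3.08 (Ey+ versus Grh+), and HisCl1 from 0.96 to 2.90 (Grh+ versus D+) and from 0.59 to 2.53 (Ey+ versus D+).

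The median log2 fold change of the receptor genes ranged over single libraries left out from -0.28 to 0.97 (Grh+ versus D+), from -1.17 to 0.33 (Ey+ versus Grh+) and from -0.36 to 0.45 (Ey+ versus D+), and without both doubted libraries was -0.29 in the first. Scaling by library size only moved the median of all genes to 0.16, -0.29 and -0.14, beside 0.83, -1.04 and -0.10 for the receptor genes.

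Correlations between same-numbered libraries of different states ranged from -0.26 to 0.50 over 9 pairs. Those between libraries with different numbers ranged from -0.54 to 0.37, and 4 of 9 libraries correlated best with their own number. With 3 libraries per state these values cannot show whether the replicate numbers pair the libraries, which was not tested. With the replicate block 0 receptor genes were called in each comparison, with Octbeta3R at -4.32 (adjusted p = 0.0682, edgeR) in Grh+ versus D+ and nAChRalpha4 at 2.75 (adjusted p = 0.0870) in Ey+ versus D+ INPs, and mGluR was at -0.029 (Grh+ versus D+) and -0.089 (Ey+ versus D+).

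Among the genes given in full, signs changed only in comparisons that edgeR did not call. In Grh+ versus D+ INPs they were DopEcR (-0.25) and mGluR (-1.26) without both doubted libraries and mAChR-C (-0.016) with the 6 libraries compared. In Ey+ versus Grh+ INPs they were 5-HT2A (0.59), Octbeta3R (-0.54) and mGluR (0.87) without both doubted libraries, DopEcR with library size only (-0.31) and at least 10 counts (-0.0088), mAChR-C with library size only (-0.19) and mGluR with no filter (0.028). In Ey+ versus D+ INPs they were Lcch3 (-0.013) and mAChR-C (-0.0067) with library size only and mGluR (-0.38) without both doubted libraries. With single libraries left out, the ranges that cross 0 were, in Grh+ versus D+ INPs, -2.66 to 0.74 (5-HT2A), -0.26 to 1.32 (DopEcR), -0.071 to 0.91 (GABA-B-R2), -0.51 to 0.57 (mAChR-C), -1.27 to 0.87 (mGluR) and -0.0037 to 0.98 (nAChRalpha4). In Ey+ versus Grh+ INPs they were -2.32 to 0.70 (5-HT2A), -0.58 to 1.24 (DopEcR), -1.07 to 1.78 (Octbeta3R), -1.03 to 0.34 (mAChR-C) and -0.76 to 1.57 (mGluR), and in Ey+ versus D+ INPs -0.39 to 0.58 (GABA-B-R2), -0.044 to 0.39 (Lcch3), -0.99 to 0.58 (mAChR-C) and -0.38 to 0.85 (mGluR). The cause was not tested. In all, 384 of 447 values of named genes under alternatives kept their direction and their side of the threshold. Most of these values belong to comparisons without a call, which seldom change side. For the edgeR calls it was 11 of 16 (Octbeta3R, Grh+ versus D+ INPs) and 9 of 17 (nAChRalpha4, Ey+ versus D+ INPs). Most receptor genes had few counts, which limits every comparison of them.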
